A study of Mus musculus with 6 samples.

Results

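The genes of the proteasome and immunoproteasome were described in CD11b+ microglia of 3 Cnr1+/+ and 3 Cnr1-/- mice. Members were the protein-coding genes whose symbol begins with Psm, a letter from a to g and a digit, which gave 50 of the 19225 genes listed. They comprised 8 alpha genes of the core, 8 beta genes outside the immunoproteasome and 3 immunoproteasome genes. They also held 20 genes of the 19S regulatory particle, 5 activator genes, 1 inhibitor gene and 4 genes of assembly factors. Psmc3ip, a recombination factor named after a protein partner, also matched the pattern and was kept apart because it encodes no subunit.

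All animals were male, unstressed and 3 months old by the sample labels, although the methods of the study give a somewhat younger age. The Cnr1-/- mice carried the constitutive Cnr1 tm1Zim allele (genotype label d/d), which removes the cannabinoid receptor CB1 from every cell and not from microglia alone. The Cnr1+/+ mice were labelled C57BL6/J with the genotype wt/wt. By the methods of the study, the Cnr1 line was itself backcrossed to C57BL6/J, and littermates of both genotypes were used. After perfusion, dissociation of the brain and removal of myelin, CD11b+ cells were taken with magnetic beads. One library per mouse was then read from the 3′ ends of polyadenylated RNA.

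The proteasome degrades proteins that carry ubiquitin. Its barrel-shaped core is built from rings of alpha and beta subunits, and the beta subunits Psmb5, Psmb6 and Psmb7 hold the cutting sites. In immune cells and after interferon, Psmb8, Psmb9 and Psmb10 take their places and form the immunoproteasome, which alters the peptides made for MHC class I. The 19S particle recognises, unfolds and feeds in substrates by means of a ring of ATPases (Psmc genes) and further subunits (Psmd genes). The Psme genes encode the PA28 and PA200 caps, and the Psmg genes encode chaperones that assemble the alpha ring. Microglia, the resident macrophages of the brain, can raise the immunoproteasome under inflammation.

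Values were in cpm (reads of a gene relative to all reads of its library), scaled by the authors, and each library corresponded to between 7708812 and 10723826 reads. A value of 0 allows up to 3 reads, or 0.280 to 0.389 cpm, and this limit covers counting error only. The 14 microglial markers were all tested and summed to between 17429 and 20191 cpm. Neutrophil markers summed to 4153 cpm and erythrocyte markers to 2342 cpm in the library labelled Cnr1-/- replicate 2, against at most 573 and 237 cpm in the other libraries. Oligodendrocyte markers summed to between 423 and 856 cpm and astrocyte markers to between 299 and 551 cpm. The 13 mitochondrially encoded genes summed to 16389 to 20091 cpm in libraries labelled Cnr1+/+ and to 20440 to 26104 cpm in those labelled Cnr1-/-. How far this bears on the members was not tested. Cnr1 was at 0 in the 3 libraries labelled Cnr1+/+ and had 13, 13 and 15 reads in those labelled Cnr1-/-. Reads from the 3′ end do not show whether the coding part of the transcript was intact, so they do not check the knockout. The allele disrupts the coding region with a neomycin cassette, and the paper describes CB1 as hardly expressed by microglia. These few reads therefore cannot settle whether labels were exchanged, which was not tested. Groups are therefore called by the labels of their libraries, and differences are those labelled Cnr1-/- minus those labelled Cnr1+/+.

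Of the 50 members, 41 had a mean of at least 10 cpm and were tested with limma on log2 (cpm + 0.1) among 6659 genes. The tested members had means between 10.2 and 112 cpm, with a median of 36.1 cpm. Sequencing from the 3′ end does not give longer transcripts more reads, so these levels are not divided by length. The 9 members below the minimum were Psma8, Psmb2, Psmb11, Psmd9, Psmd10, Psmf1, Psmg1, Psmg4 and Psmc3ip, and their levels are described without a test. Psma8, the alpha subunit of male germ cells, was listed between 0 and 2.52 cpm, and Psmb11, the beta subunit of the thymic cortex, between 0 and 1.07 cpm. Psmb2, a constitutive beta subunit without a cutting site, was listed between 5.59 and 8.49 cpm and Psmf1, the inhibitor PI31, between 6.48 and 13.1 cpm. Psmd9 and Psmd10, which act as chaperones of the 19S base, had means of 8.60 and 8.63 cpm, and the alpha-ring chaperones Psmg1 and Psmg4 had 7.06 and 9.33 cpm. Psmc3ip was listed between 0 and 1.95 cpm.

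**Figure D1:**
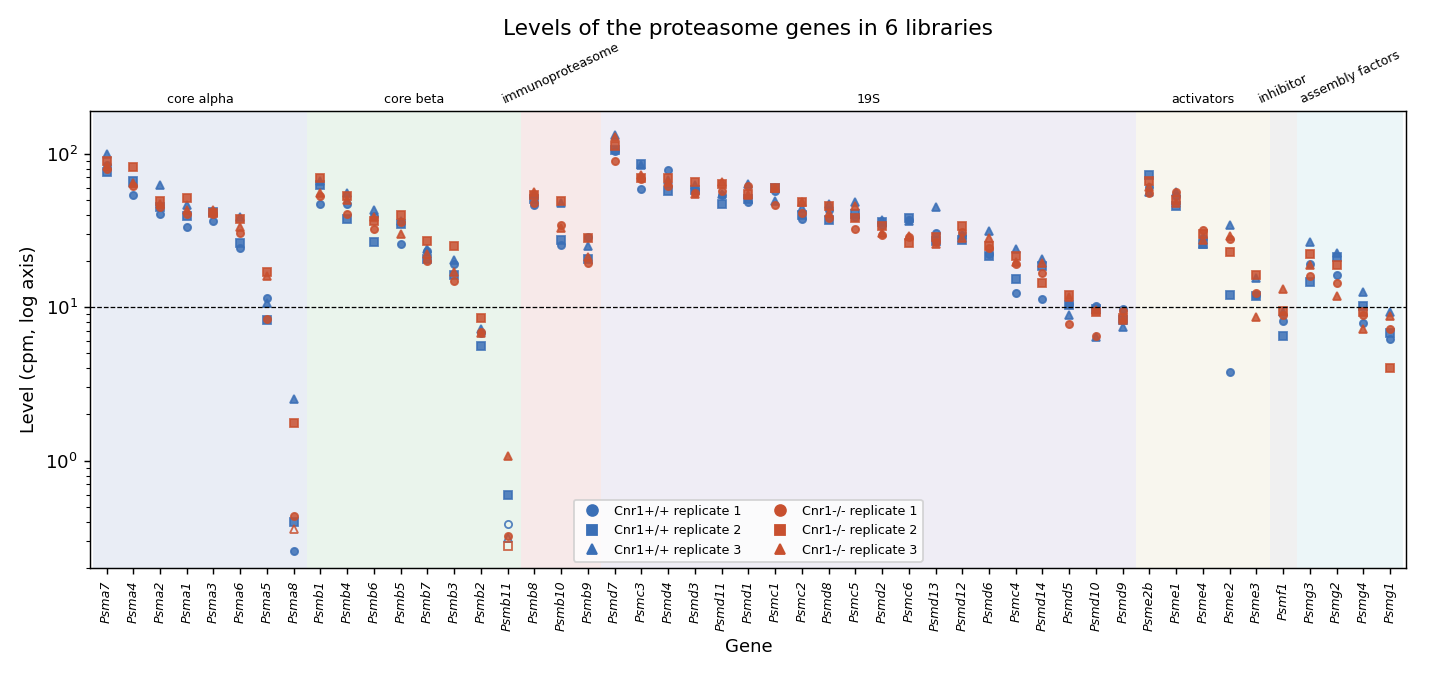
Levels of the 49 proteasome genes (cpm, logarithmic axis) in each of the 6 libraries, ordered by group and by mean. Open symbols mark values of 0, drawn at the level of 3 reads, and the dashed line marks the minimum mean of 10 cpm. Psme2 has the widest spread among the tested genes, and Psma8 and Psmb11 lie far below the rest.

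Levels of most members were alike from library to library. The highest library exceeded the lowest by less than 2-fold for 39 of the 41 tested members. The median of this ratio was 1.47 for the members and 1.51 for all tested genes. Summed over all groups, the members took between 1593 and 1914 cpm. The library labelled Cnr1+/+ replicate 3 held the highest value for 17 of the 41 members and that labelled Cnr1-/- replicate 2 for 13, whereas that labelled Cnr1+/+ replicate 1 held the lowest for 15. The median deviation of the members from their own means was 0.17 on the log2 scale in Cnr1+/+ replicate 3 and 0.14 in Cnr1-/- replicate 2, the library with the neutrophil and erythrocyte markers. For all tested genes these deviations were 0.065 and 0.13. The part of these other cells in the levels of the members was not tested, and fewer cells of a type and less RNA per cell cannot be told apart in such samples.

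Between the genotype labels, 2 of the 41 tested members had a nominal p under 0.05 with limma, or 4.88%, where 6.02% of all tested genes did. Psme2 was the 1 member that was higher (background 5.09% of genes) and Psmc6 the 1 that was lower (background 0.931%). After Benjamini-Hochberg adjustment over all genes, 0 members combined an adjusted p below 0.1 with a change of more than 1.5-fold (background 0.0901%), and the smallest adjusted p of a member with limma was 0.655. The median log2 fold change was 0.02 for the members and 0.08 for all tested genes, and 23 members had a positive difference (56.1%) and 18 a negative one, where 68.4% of all tested genes had a positive one. The sign of this median depended on the scaling, since it was -0.055 when libraries were centred on their medians and -0.066 after quantile normalisation, with 12 members positive and 29 negative in each case. Under both of these scalings 4 members passed, namely Psmc6, Psmd13, Psme2 and Psmg2, where 5.63% and 5.41% of all tested genes did.

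**Figure D2:**
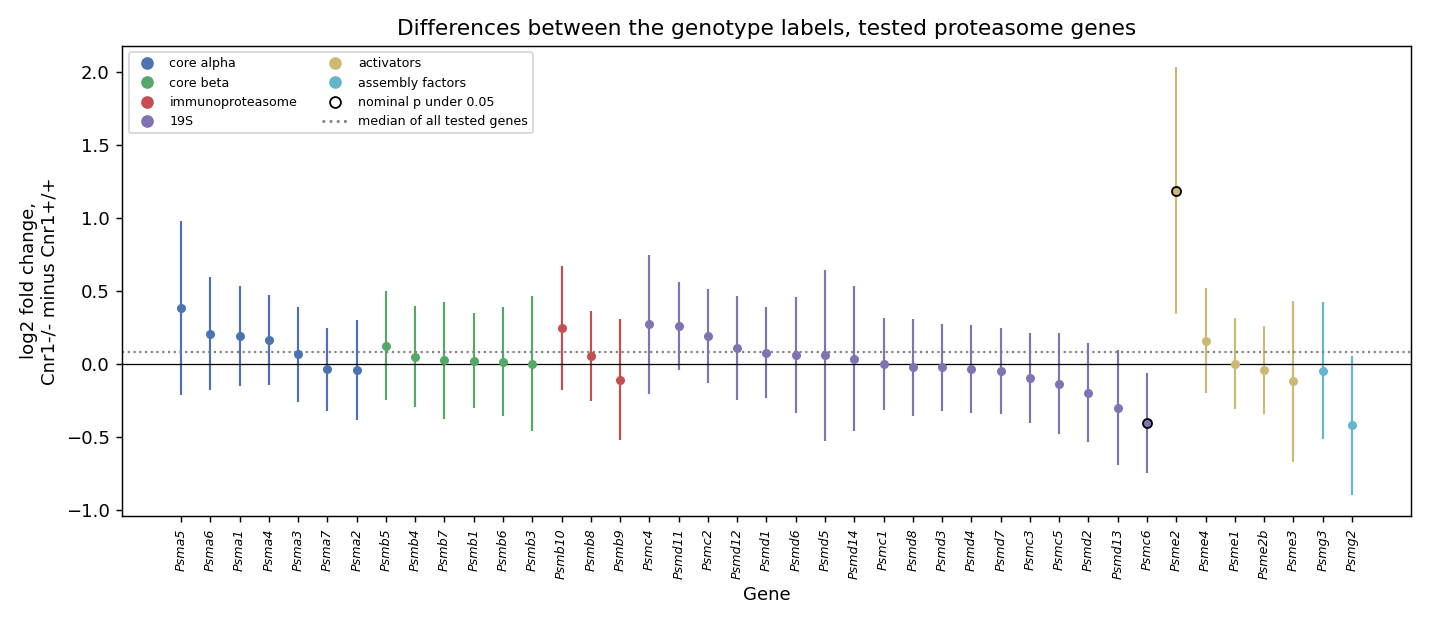
Log2 fold change (Cnr1-/- minus Cnr1+/+ labels) of the 41 tested members with 95% intervals from limma, ordered by group. Black outlines mark the 2 members with a nominal p under 0.05, Psme2 at 1.19 and Psmc6 at -0.40, and the dotted line marks the median of all tested genes at 0.08.

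Psme2 encodes the beta subunit of PA28, which with the alpha subunit Psme1 forms an interferon-inducible cap that opens the core. It lies on chromosome 14 (mm10, 55587441 to 55591113, minus strand). Psme2b, on chromosome 11 (48945354 to 48946190, minus strand), is tagged in the annotation as a retrogene, an intronless copy made from a messenger RNA. Over 794 aligned bases the transcripts of Psme2 and Psme2b were 99.4% identical and differed at 5 positions, C510T, A567G, C687T, C717T and C741T, where the base of Psme2 comes first and positions are counted from 1 at the 5′ end of that of Psme2. No difference followed in the 221 bases after the last. Since library reads were 50 bases long and come from the 3′ end, this is where the genes would have to be told apart, and 172 of the 251 windows of 50 bases in the last 300 bases of Psme2 (68.5%) were also in Psme2b. The coding stretch that holds the last 2 differences, given in capitals, reads as follows in each gene.
Psme2: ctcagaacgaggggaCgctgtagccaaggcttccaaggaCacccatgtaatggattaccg
Psme2b: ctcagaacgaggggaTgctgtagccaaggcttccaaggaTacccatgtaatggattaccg

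The values of Psme2 were 3.76, 11.9 and 34.4 cpm in replicates 1 to 3 labelled Cnr1+/+, and 27.9, 23.03 and 28.99 cpm under the label Cnr1-/-. The groups overlapped, since the highest value of all was in a library labelled Cnr1+/+ and only the other two of that label lay below every library labelled Cnr1-/-. The means were 16.7 ± 15.9 and 26.6 ± 3.17 cpm (SD, n = 3), and the log2 fold change was 1.19 with an SE of 0.41 (limma adjusted p = 0.655). The two-sided exact permutation test gave p = 0.4, where a comparison of 3 against 3 cannot go below 0.1. The result rested on single libraries. Without Cnr1+/+ replicate 1 the log2 fold change was 0.39 and no longer passed the nominal threshold, and without Cnr1+/+ replicate 3 it was 1.97 (limma adjusted p = 0.00572), so that 1 member then passed the adjusted threshold, where 0.242% of all tested genes did.

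Psme2b, by contrast, was at 60.7, 72.2 and 56.3 cpm under the label Cnr1+/+ and at 55.8, 66.5 and 60.9 cpm under the label Cnr1-/-, a difference of -0.04 on the log2 scale (SE 0.15, limma adjusted p = 0.982). Its groups overlapped throughout. The sum of both genes was 64.5, 84.1 and 90.8 cpm under the label Cnr1+/+ and 83.7, 89.5 and 89.9 cpm under the label Cnr1-/-. The log2 difference of this sum was 0.15 (exact permutation p = 0.7), and it was 0.0048 without Cnr1+/+ replicate 1 and 0.25 without Cnr1+/+ replicate 3. Psme2 took 5.83%, 14.2% and 37.9% of the sum in the libraries labelled Cnr1+/+ and 33.3%, 25.7% and 32.2% in the others. The spread of Psme2 therefore did not appear in the sum to the same extent, the highest library exceeding the lowest 9.15-fold for Psme2 and 1.41-fold for the sum. How the authors' expectation-maximisation divided reads between both genes was not tested.

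**Figure D3:**
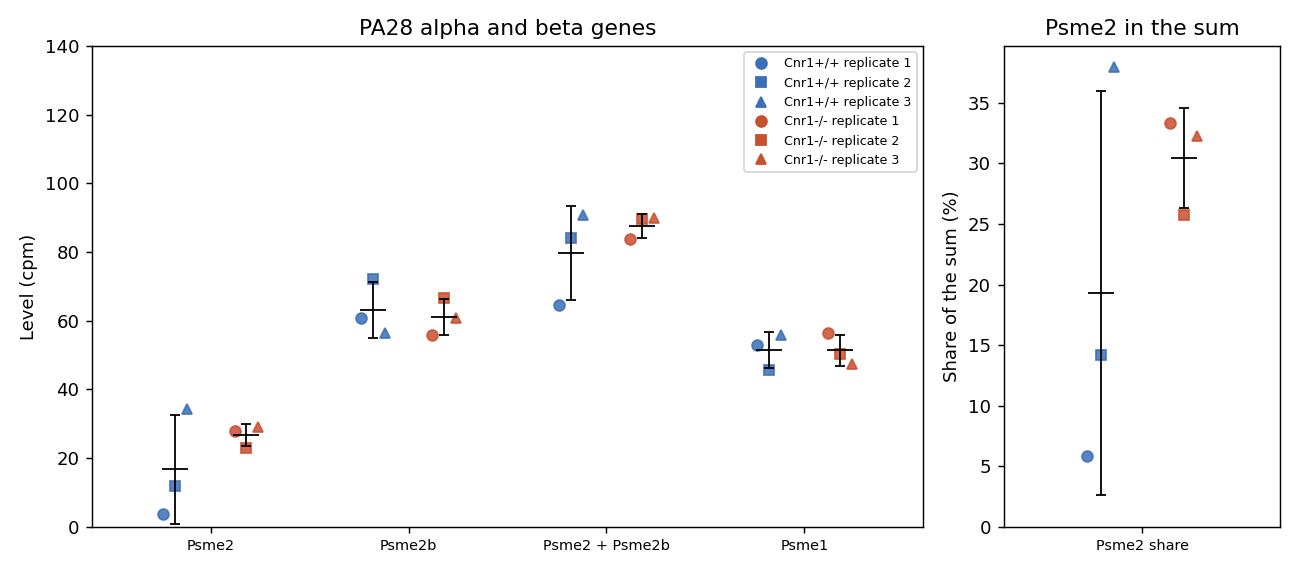
Left, levels of Psme2, its copy Psme2b, their sum and Psme1 (cpm) in each library with the mean and SD of each label (n = 3). Right, share of Psme2 in the sum (%). The share lies between 5.83% and 37.9% in the libraries labelled Cnr1+/+, whereas the sums lie between 64.5 and 90.8 cpm.

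Psme1, the alpha subunit of PA28, had 52.9, 45.7 and 55.9 cpm under the label Cnr1+/+ and 56.4, 50.3 and 47.5 cpm under the label Cnr1-/-. The log2 fold change was -0.00051 (95% interval -0.31 to 0.31). Psme3, whose product PA28 gamma caps the core in the nucleus, had 12.1, 11.9 and 15.5 against 12.3, 16.2 and 8.59 cpm. Psme4, encoding PA200, had 28.3, 25.9 and 25.9 against 31.9, 30.1 and 27.4 cpm. The groups of all 3 genes overlapped, and the intervals of the log2 fold change were -0.67 to 0.43 for Psme3 and -0.20 to 0.52 for Psme4.

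Psmc6 encodes Rpt4, 1 of the ATPases of the 19S ring, and lies on chromosome 14 (45329788 to 45349705, plus strand). It had 37.0, 38.0 and 36.2 cpm under the label Cnr1+/+ and 28.7, 26.3 and 28.98 cpm under the label Cnr1-/-. The groups did not overlap and the values within each differed little. Means were 37.1 ± 0.92 and 28.0 ± 1.47 cpm (SD, n = 3), and the log2 fold change was -0.40 with an SE of 0.17 (limma adjusted p = 0.792). The value was a whole number of reads, between 243 and 381, in all 6 libraries, and 0 windows of 50 bases near its 3′ end were found in another gene. It missed the nominal threshold without Cnr1+/+ replicate 2 and without Cnr1-/- replicate 2 (limma adjusted p = 0.866 and 0.999), while the log2 fold change stayed between -0.43 and -0.36 whichever library was left out. Among the 18 tested members of the 19S particle, Psmc6 was the 1 with a nominal p under 0.05, and 8 had positive and 10 negative differences, with a median of -0.013.

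Psmd11 and Psmd2, named after their values were seen, had groups that did not overlap without passing the limma test. In all, groups did not overlap for 3 of the 41 tested members, against 11% of all tested genes (8.85% higher and 2.13% lower). Psmd11, a scaffold subunit of the 19S lid also known as Rpn6, had 53.7, 47.2 and 54.8 cpm under the label Cnr1+/+ and 57.5, 63.4 and 65.7 cpm under the label Cnr1-/- (log2 fold change 0.26, limma adjusted p = 0.839). Its log2 fold change was 0.18 with libraries centred on their medians and 0.17 after quantile normalisation. Psmd2, the base subunit Rpn1, which binds ubiquitin-like shuttle proteins, had 34.5, 36.0 and 36.9 against 29.3, 33.9 and 30.5 cpm (log2 fold change -0.20, limma adjusted p = 0.900). Thus Psmd11 was higher and Psmd2 and Psmc6 were lower in each library labelled Cnr1-/- than in any of the other label. A processed pseudogene shares sequence with each, Gm14048 with Psmd11 (98.0% identity) and Gm5422 with Psmd2 (96.7%), both over the coding part. The transcripts used for Psmd11 and Psmd2 have 2848 and 2961 bases, and the alignments end at bases 1309 and 2789. The stretch printed for Psmd11 thus lies far from the 3′ end of that transcript. In the coding stretches printed here, 1 base differs between each gene and its copy and is given in capitals. The differences are T1260G and C2739T, with the base of the gene first and positions from the 5′ end of the transcripts of Psmd11 and Psmd2.
Psmd11: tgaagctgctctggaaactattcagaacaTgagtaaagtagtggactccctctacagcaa
Gm14048: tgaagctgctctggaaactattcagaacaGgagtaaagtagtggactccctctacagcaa
Psmd2: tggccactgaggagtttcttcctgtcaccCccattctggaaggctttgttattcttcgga
Gm5422: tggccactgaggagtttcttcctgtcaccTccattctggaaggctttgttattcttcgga

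Gm14048 held 1.05% of the sum with Psmd11, and the groups still did not overlap for that sum. Gm5422 held 6.64% of the sum with Psmd2, and the groups of that sum overlapped (log2 difference -0.16, exact permutation p = 0.2). Psmd13, a lid subunit named after its values were seen, had 30.2, 27.1 and 44.7 cpm under the label Cnr1+/+ and 26.6, 28.7 and 25.6 cpm under the label Cnr1-/-. The log2 fold change was -0.30 (limma adjusted p = 0.870), and -0.087 without Cnr1+/+ replicate 3, the library in which it was highest. It passed the nominal threshold without Cnr1+/+ replicate 2, at -0.45 (limma adjusted p = 0.863). The most abundant 19S genes were Psmd7, a lid subunit, and Psmc3, the ATPase Rpt5. Psmd7 ranged from 89.96 to 132 cpm with a log2 fold change of -0.05 (SE 0.14), and Psmc3 from 58.9 to 85.5 cpm with -0.096 (SE 0.15). For Psmc3 this became -0.0046 and -0.012 on leaving out Cnr1+/+ replicate 2 or 3, and -0.27 on leaving out replicate 1 of that label. The summed level of the 19S genes was 826 ± 64.4 and 813 ± 52.8 cpm (SD, n = 3), a log2 difference of -0.022 (exact permutation p = 0.9). Over the 6 groups of genes, the exact permutation p of the summed levels lay between 0.3 and 0.9, and between 0.75 and 0.9 after Benjamini-Hochberg adjustment.

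**Figure D4:**
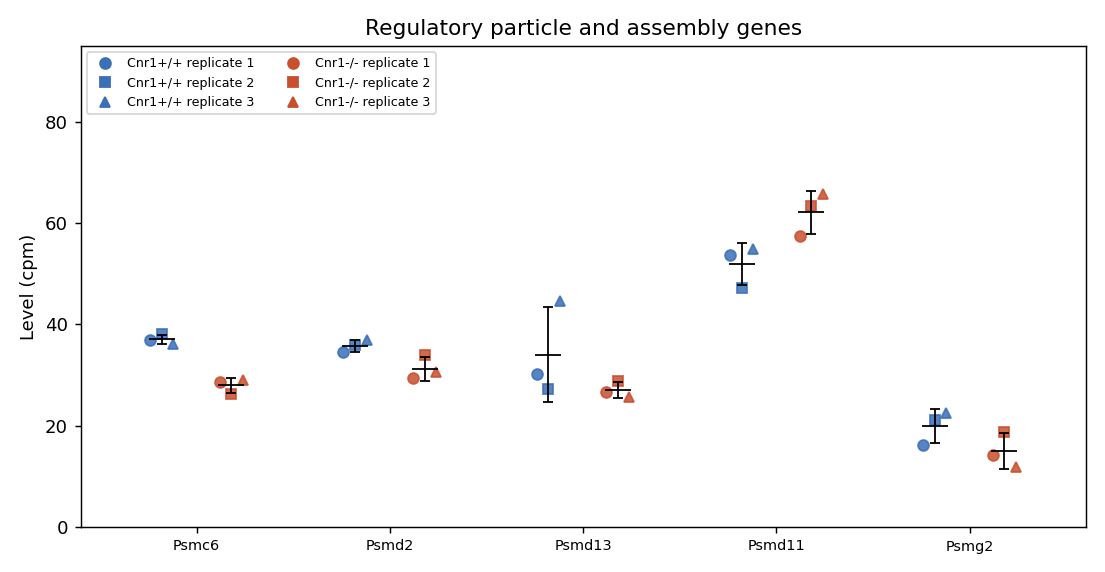
Levels (cpm) of 4 genes of the 19S particle and of the assembly factor Psmg2 in each library, with the mean and SD of each label (n = 3). Psmc6 and Psmd2 lie lower and Psmd11 higher in all 3 libraries labelled Cnr1-/-, whereas Psmd13 and Psmg2 overlap.

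All 6 catalytic subunits missed the nominal threshold. Psmb8, the immunoproteasome counterpart of Psmb5, had 46.6, 50.6 and 54.9 cpm under the label Cnr1+/+ and 47.5, 53.7 and 56.6 cpm under the label Cnr1-/- (log2 fold change 0.05, 95% interval -0.26 to 0.36). Psmb9, the counterpart of Psmb6, had 28.8, 20.6 and 24.9 against 19.4, 28.4 and 21.3 cpm (-0.11, 95% interval -0.52 to 0.31). Psmb10, the counterpart of Psmb7, had 25.6, 27.2 and 47.4 against 34.1, 49.2 and 32.8 cpm (0.25, 95% interval -0.18 to 0.67). Psmb10 thus varied most of the 3, with its highest values in 1 library of each label. Without Cnr1+/+ replicate 3 it passed the nominal threshold, with a difference of 0.53 on the log2 scale (limma adjusted p = 0.434). The difference was instead 0.060 when Cnr1-/- replicate 2 was left out and 0.082 when Cnr1+/+ replicate 1 was.

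Of the constitutive partners, Psmb5 had 25.6, 35.1 and 36.3 cpm against 35.7, 39.7 and 29.9 cpm (log2 fold change 0.12). Psmb6 had 39.1, 26.8 and 42.7 against 32.5, 36.7 and 38.6 cpm (0.014, although the means were 36.2 and 35.9 cpm), and Psmb7 had 23.3, 20.6 and 23.9 against 20.03, 27.04 and 22.2 cpm (0.023). All 6 catalytic genes had overlapping groups. Within a library, the 3 immunoproteasome genes together stood at 1.14 to 1.27 times the sum of the 3 constitutive ones. This ratio was 1.19 ± 0.045 and 1.21 ± 0.063 (SD, n = 3) under the labels Cnr1+/+ and Cnr1-/-, a log2 difference of 0.024 (exact permutation p = 0.8).

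Pair by pair, Psmb8 exceeded Psmb5 in each of the 6 libraries, by 1.33 to 1.90 times. Psmb10 exceeded Psmb7 in each, by 1.09 to 1.99 times, whereas Psmb9 lay below Psmb6 in each, at 0.553 to 0.775 times its level. Psmb5 and Psmb6 each share windows with a processed pseudogene, which held 6.99% and 3.01% of their sums and was not added to the ratios. The log2 differences of these ratios between labels were -0.071, 0.22 and -0.12, with exact permutation p of 0.6, 0.5 and 0.7. With single libraries left out, the difference for Psmb9 over Psmb6 lay between -0.27 (Cnr1-/- replicate 2) and -0.023 (Cnr1-/- replicate 3). Over the 4 ratios compared, the Benjamini-Hochberg adjusted exact permutation p was 0.8 for each. Over the 6 libraries, the members most like Psmb8 by Pearson r of log2 values were Psmd7 (0.88), Psmc2 (0.86) and Psma3 (0.78). Those most like Psmb9 were Psmb7 (0.87), Psmd4 (0.87) and Psmb3 (0.87), and those most like Psmb10 were Psma6 (0.96), Psma1 (0.92) and Psmc4 (0.91). These values describe 6 libraries, within each of which all members share its depth and scaling. The immunoproteasome genes were not among each other's closest 3.

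**Figure D5:**
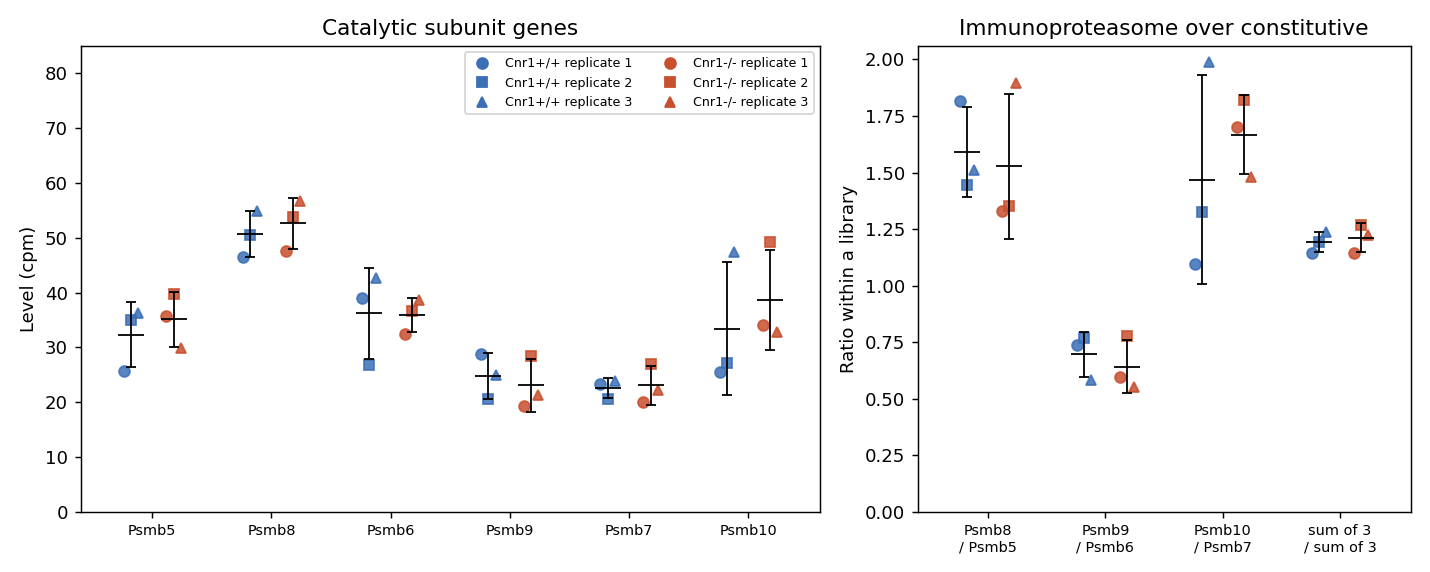
Left, levels (cpm) of the constitutive catalytic genes Psmb5, Psmb6 and Psmb7 beside their immunoproteasome counterparts Psmb8, Psmb9 and Psmb10, with the mean and SD of each label (n = 3). Right, the ratio of each pair and of the sums within a library, which lie between 1.14 and 1.27 for the sums in both labels.

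The 7 tested alpha genes had log2 fold changes between -0.04 and 0.38, with 5 positive and 2 negative. The sum over this group, with the untested Psma8 included, was 318 ± 43.1 and 335 ± 31.2 cpm (SD, n = 3, exact permutation p = 0.5). Psma7 and Psma4, the most abundant of the ring, ranged from 75.9 to 100.02 and from 53.8 to 81.3 cpm, with log2 fold changes of -0.038 and 0.16. The value of Psma4 was 0.069 without Cnr1+/+ replicate 1 and 0.039 without Cnr1-/- replicate 2, the library with the neutrophil and erythrocyte markers. Psma5, an alpha subunit named after its values were seen, had 11.4, 8.29 and 10.7 cpm under the label Cnr1+/+ and 8.32, 17.01 and 15.9 cpm under the label Cnr1-/-. The groups overlapped through 1 low library labelled Cnr1-/-, and the log2 fold change of 0.38 (SE 0.29, limma adjusted p = 0.900) was the highest of the alpha genes. It passed the nominal threshold without Cnr1-/- replicate 1, at 0.71 (limma adjusted p = 0.856), and was 0.20 without Cnr1-/- replicate 2. Its reads were whole numbers in 0 of the 6 libraries, and its copy Gm12989, a processed pseudogene, held 17.05% of their sum. The 6 tested constitutive beta genes had log2 fold changes between 0.00078 and 0.12, all positive, as were 68.4% of all tested genes, but all except Psmb5 turned negative with libraries centred on their medians and after quantile normalisation. The sum over this group, with the untested Psmb2 and Psmb11 included, was 222 ± 26.8 and 228 ± 28.5 cpm (exact permutation p = 0.7). Psmb1 and Psmb4, structural beta subunits without a cutting site, were the most abundant, at 47.2 to 69.05 and 37.5 to 55.6 cpm, and their log2 fold changes were 0.020 and 0.048. The direction of the beta sum turned when libraries were centred on their medians (-0.035).

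The chaperones Psmg2 and Psmg3 were the assembly factors that could be tested. Psmg2 had 16.2, 21.2 and 22.4 cpm under the label Cnr1+/+ and 14.3, 18.8 and 11.8 cpm under the label Cnr1-/- (log2 fold change -0.42, limma adjusted p = 0.839). The groups overlapped. It passed the nominal threshold after median centring, at -0.50 on the log2 scale (limma adjusted p = 0.884). It also passed without Cnr1+/+ replicate 1 and without Cnr1-/- replicate 2, at -0.56 and -0.60, whereas it was -0.26 without Cnr1-/- replicate 3 (limma adjusted p = 0.989). Psmg3 had 19.1, 14.6 and 26.4 against 15.9, 22.2 and 18.8 cpm, with a log2 fold change of -0.047.

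Reads of many proteasome genes could have come from copies elsewhere in the genome. The values were whole numbers of reads (within 0.02) in all 6 libraries for 23 of the 41 tested members, against 72.2% of all tested genes. Of these 23, 2 shared a window of 50 bases near the 3′ end with another gene, whereas 14 of the other 18 did, the median share of windows being 0% and 22.2%. A listed gene that shares such windows, called a copy here, was found for 13 tested members, with Psme2b counted as the copy of Psme2. For Psmd1 it was Gm21972, a protein-coding gene on chromosome 1 like Psmd1, and their positions were not compared. Adding the value of the listed copy with the most shared windows changed the log2 difference by less than 0.1 for 12 of the 13, with at most 0.050. The pair of Psme2 and Psme2b, described above, was the exception. Psma3, Psma5, Psmb3 and Psme1 share windows with further listed genes, which were not added. When only the 23 members with whole reads were counted, 1 passed the nominal threshold, which was Psmc6 (4.35%, against 5.67% of all tested genes with whole reads).

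Genes around the proteasome were read from 4 lists. Of 9 tested proteasome-associated genes, 1 was higher and 0 were lower at a nominal p under 0.05 (background 5.09% and 0.931% of genes), with a median log2 fold change of 0.058. Pomp, the chaperone that completes the core, was that gene. It had 112, 96.0 and 120 cpm under the label Cnr1+/+ and 141, 128 and 131 cpm under the label Cnr1-/-, with groups that did not overlap (log2 fold change 0.29, SE 0.13, limma adjusted p = 0.809). Of 6 tested regulators of proteasome genes, 1 was higher and 0 were lower (against the same 5.09% and 0.931%), with a median of 0.15. This was Ddi2, the protease that activates the transcription factor Nfe2l1, at 31.7, 27.4 and 28.1 against 31.4, 44.2 and 38.2 cpm (0.37, limma adjusted p = 0.821). Nfe2l1 itself, which drives proteasome genes when degradation falters, differed by 0.14 on the log2 scale (limma adjusted p = 0.952).

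Of 14 tested ubiquitin and shuttle genes, 1 was higher and 0 were lower, where 5.09% and 0.931% of all tested genes were, with a median of -0.0057. Ubb, a polyubiquitin gene, was at 70.3, 78.5 and 101 cpm under the label Cnr1+/+ and 104, 109 and 98.3 cpm under the label Cnr1-/- (log2 fold change 0.33, limma adjusted p = 0.797), and its groups overlapped. All 14 tested genes of the MHC class I peptide pathway missed the nominal threshold, with 9 positive and 5 negative (68.4% of all tested genes being positive) and a median of 0.086. For 4 of the 14, named after their values were seen, the groups did not overlap, where 11% of all tested genes did so. H2-K1, a class I heavy chain, had 117, 126 and 124 cpm under the label Cnr1+/+ and 101, 99.2 and 111 cpm under the label Cnr1-/- (log2 fold change -0.23, limma adjusted p = 0.839). Tap2, a subunit of the peptide transporter, had 25.7, 26.6 and 22.1 against 29.8, 36.1 and 27.7 cpm (0.32), and the peptide editors Tapbp and Tapbpl had log2 fold changes of 0.23 and 0.35. The direction of all 4 was kept with libraries centred on their medians and after quantile normalisation, and H2-K1 then passed the nominal threshold, with limma adjusted p of 0.876 and 0.835. Tapbp was at 0.15 and 0.14 under these scalings and at 0.12 without Cnr1+/+ replicate 2, and it passed the nominal threshold without Cnr1+/+ replicate 1, at 0.30 (limma adjusted p = 0.807). Leaving out Cnr1-/- replicate 2, the library with the neutrophil and erythrocyte markers, gave log2 fold changes of -0.20 for H2-K1, 0.21 for Tap2, 0.25 for Tapbp and 0.24 for Tapbpl. The medians of the 4 lists stood beside 0.08 for all tested genes. Pomp, Ddi2 and Ubb each lost the nominal threshold under quantile normalisation (limma adjusted p = 0.900 for each), without the trend in eBayes, which leaves the fold change as it is (0.886, 0.862 and 0.878), and without Cnr1+/+ replicate 2 (0.894, 0.876 and 0.866). Without Cnr1-/- replicate 2, Ddi2 and Ubb also lost it (limma adjusted p = 0.999 for both), at 0.25 and 0.29 on the log2 scale against 0.37 and 0.33 with all libraries. Pomp and Ddi2 lost it with libraries centred on their medians (limma adjusted p = 0.899 for both) and without Cnr1-/- replicate 3 (0.989 for both), Pomp and Ubb without Cnr1-/- replicate 1 (0.861 and 0.856), Ddi2 without Cnr1+/+ replicate 3 (0.572) and Ubb without Cnr1+/+ replicate 1 (0.951). The log2 fold change of Pomp was 0.22 with centring, 0.20 after quantile normalisation and also on leaving out Cnr1+/+ replicate 2, and 0.25 and 0.31 on leaving out Cnr1-/- replicate 1 or 3. That of Ddi2 was 0.30 with centring, 0.29 after quantile normalisation, 0.33 and 0.35 without Cnr1+/+ replicate 2 or 3, and 0.36 without Cnr1-/- replicate 3. Ubb was at 0.23 after quantile normalisation, at 0.22 and 0.30 without Cnr1+/+ replicate 1 or 2, and at 0.33 without Cnr1-/- replicate 1.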

How the data were processed

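RNA was measured in 6 libraries, grouped by their genotype labels. The authors aligned trimmed reads to mm10 with STAR, divided reads among genes by expectation-maximisation in Partek and applied TMM normalisation. The deposited values are CPM, made by the authors. The value of 1 read was derived from the steps between values. Since 83.4% to 85.5% of values per library were whole, tests for counts were not used.

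Tests used limma 3.58.1 in R 4.3.3 (lmFit, eBayes with trend) on log2 (cpm + 0.1) where the mean reached at least 10, with Benjamini-Hochberg adjustment, and were tested on simulated data. Sums and ratios were compared by two-sided exact permutation. Members and lists were chosen with earlier results of these data known. Named are members and listed genes with a nominal p under 0.05, catalytic, Psme and Psmg genes, the 2 most abundant per group and untested members.

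Sequences and shared 50-base windows (last 500 bases, same strand) came from GENCODE vM21 transcripts, not the authors' Ensembl release. Window sharing, sums with copies and the split by whole reads were added after seeing the data. Alternatives were pseudocount 1, no minimum, a minimum of 20, median centring, quantile normalisation, no trend, voom, a replicate block and leaving out each library.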

Additional observations from a re-analysis of the deposited data

How the results depend on the processing

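The number of members with a nominal p under 0.05 was 2, and became 4 with libraries centred on their medians, 4 after quantile normalisation, 1 (Psmc6) without the trend in eBayes and 1 (Psmc6) among members with whole reads, where 5.63%, 5.41%, 5.87% and 5.67% of all tested genes, or of those with whole reads, passed. It lay between 2 and 5 with each library left out, and the number past the adjusted threshold between 0 and 1, the highest of both without Cnr1+/+ replicate 3, where 9.07% of all tested genes also had a nominal p under 0.05 (600 of 6614, against 6.02%) and 0.242% passed the adjusted threshold. The 5 were Psma6, Psmb10, Psmc4, Psmc6 and Psme2. Over the other libraries left out, 3.81% to 5.89% of all tested genes passed the nominal threshold. Psme2 lost the nominal threshold without Cnr1+/+ replicate 1 and without the trend (limma adjusted p = 0.875).

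Directions of members with small differences turned. Positive members fell from 23 to 12 with centring and after quantile normalisation, and not all of those that turned are given here. With centring on the median, log2 fold changes were -0.055 for Psmb1, -0.075 for Psmb3, -0.027 for Psmb4, -0.061 for Psmb6, -0.053 for Psmb7 and -0.022 for Psmb8, and after quantile normalisation -0.072, -0.063, -0.049, -0.066, -0.045 and -0.034. Centring gave -0.035 for the core beta sum and -0.0025 for the immunoproteasome sum, and adding its copy gave 0.0079 for Psmc1. The 19S, core alpha and activator sums kept their sign with centring, at -0.097, 0.0043 and 0.012.

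With each library left out, ranges that crossed 0 were -0.13 to 0.068 for Psma7, -0.13 to 0.12 for Psmb1, -0.22 to 0.16 for Psmb3, -0.099 to 0.18 for Psmb4, -0.034 to 0.24 for Psmb5, -0.19 to 0.15 for Psmb6, -0.097 to 0.12 for Psmb7, -0.0057 to 0.13 for Psmb8, -0.27 to 0.0070 for Psmb9, -0.17 to 0.088 for Psmd7, -0.084 to 0.061 for Psme1, -0.12 to 0.059 for Psme2b, -0.34 to 0.12 for Psme3 and -0.25 to 0.17 for Psmg3. For sums they were -0.056 to 0.14 (core beta), -0.031 to 0.19 (immunoproteasome) and -0.057 to 0.042 (19S), and for ratios -0.011 to 0.064 (sums) and -0.24 to 0.029 (Psmb8 over Psmb5). Ranges that kept their sign were 0.039 to 0.24 for Psma4, 0.20 to 0.71 for Psma5, 0.060 to 0.53 for Psmb10, -0.27 to -0.0046 for Psmc3, -0.45 to -0.087 for Psmd13, -0.60 to -0.26 for Psmg2, -0.43 to -0.36 for Psmc6, 0.19 to 0.32 for Psmd11, -0.26 to -0.15 for Psmd2, 0.39 to 1.97 for Psme2, 0.11 to 0.22 for Psme4, 0.20 to 0.36 for Pomp, 0.25 to 0.50 for Ddi2 and 0.22 to 0.48 for Ubb. For sums they were 0.0038 to 0.19 (core alpha), 0.030 to 0.16 (activators), -0.32 to -0.060 (assembly factors) and 0.0048 to 0.25 (Psme2 with Psme2b), and for ratios -0.27 to -0.023 (Psmb9 over Psmb6) and 0.034 to 0.46 (Psmb10 over Psmb7). The cause was not tested.

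Same-numbered libraries correlated at -0.056, -0.032 and -0.031 in their deviations from the means of their labels. With deviations taken within 3 libraries per label, these values cannot settle whether replicate numbers pair the libraries. With the replicate number as a block, 2 members and 421 of all tested genes passed the nominal threshold, and it changed no call of a member named here. Ratios within a library are not altered by centring. The number of libraries, 3 per label, and between 29 and 1256 reads per tested member limit the precision.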
